A study of Danio rerio with 15 samples.

Results

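The cytochrome P450 family 1 (CYP1) of the zebrafish comprises cyp1a, cyp1b1, cyp1c1, cyp1c2 and cyp1d1, and these 5 genes are described here among the 36351 genes of a comparison of TCPMOH with its solvent control. They were chosen by symbol, each symbol had 1 entry in the table, and all 5 passed the filter on low values. The study exposed wild-type AB zebrafish in the water from 96 to 100 hours post fertilization (hpf), for 4 hours. The controls received DMSO, the solvent, at 0.01% v/v, and the treated groups received 50 nM tris(4-chlorophenyl)methane (TCPM) or 50 nM tris(4-chlorophenyl)methanol (TCPMOH), a pair of chlorinated pollutants. Each group has 5 RNA libraries, 15 in all, and each library was made from 8 to 10 whole animals pooled at 100 hpf. Whether the TCPM libraries entered the fit behind the base means and SEs is not stated. The values below come from the authors' deposited table for TCPMOH and DMSO. The TCPM libraries were not analysed here, and no statement compares TCPM with TCPMOH.

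CYP1 enzymes sit in the membrane of the endoplasmic reticulum and oxidize flat aromatic molecules, among them pollutants such as polycyclic hydrocarbons and compounds made in the body. Most of the family is switched on by the aryl hydrocarbon receptor (AhR), a ligand-activated transcription factor that enters the nucleus, pairs with ARNT and binds DNA near its targets. The enzymes in turn break down many AhR ligands, including ligands that form from tryptophan, which makes the family both a readout of the receptor and a brake on it. The messenger RNA of cyp1a is the usual marker of AhR activity in fish.

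The header of the table names no numerator for its fold changes. A negative log2 fold change is read here as lower with TCPMOH, which takes the control as reference. Under the other reading every direction below would swap.

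Of the 5 CYP1 genes, 4 were lower after TCPMOH and 0 were higher, while cyp1d1 did not pass (authors' deposited table, Wald test of DESeq2 with a Benjamini-Hochberg adjusted p under 0.05). Among all 19257 tested genes 2.68% were called in either direction, 1.92% as lower and 0.758% as higher. The members were chosen with earlier results of these data known, so their share of called genes describes the family and tests nothing. With group sums, rebuilt from base means and fold changes, made equal, these shares were 1.13% lower and 1.84% higher, and 3 members were lower. The median log2 fold change was -0.44 over the 5 members and -0.002 over all tested genes. In that same table the member genes spread from 58.4% to 101% of the DMSO level, or from 99.2% to 171% under the other reading. The order from the lowest fold change upward was cyp1a, cyp1c1, cyp1c2, cyp1b1 and cyp1d1.

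**Figure D1:**
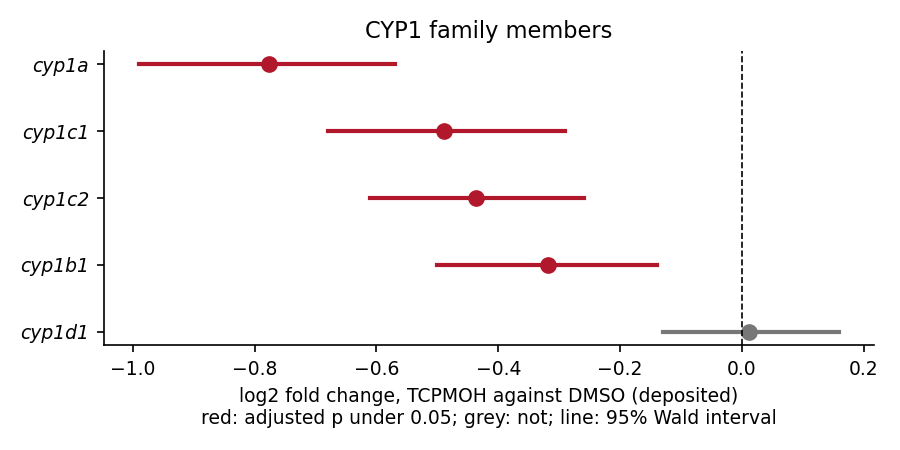
Log2 fold change of each CYP1 gene with TCPMOH against DMSO, with its 95% Wald interval as a line and the x axis on the log2 scale. The intervals of cyp1a, cyp1c1, cyp1c2 and cyp1b1 (red, called) lie below 0, from -0.99 for the lowest bound of cyp1a to -0.14 for the upper bound of cyp1b1, and that of cyp1d1 (grey, not called) runs from -0.13 to 0.16.

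The strongest response belonged to cyp1a, the classical AhR target of liver, gut, vessels and skin. It stood at a log2 fold change of -0.78 in the authors' deposited table (standard error, SE, 0.107; adjusted DESeq2 p = 3.04e-10), with a 95% Wald interval from -0.99 to -0.57. That is 58.4% of the DMSO level (95% interval 50.5% to 67.5%), or 1.71-fold lower, per the authors' deposited table. Under the other reading it would be 171% (148% to 198%). Undoing the shrinkage described at the end gave 49%, outside the first interval. The gene lies on chromosome 18 from 5588068 to 5598958 on the minus strand. Its base mean, the mean normalized count over the fitted libraries, was 21956 in the authors' deposited table, so counting noise adds little to its error. Among 19257 tested genes it ranked 10 from the most negative log2 fold change, an end that would be the highest under the other reading, and 23 by the size of the Wald statistic.

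Highly expressed genes seldom moved this far. Of the 206 other tested genes with a base mean from 10978 to 43911, which is within a factor of 2 of that of cyp1a, 2 were called lower and 0 had a lower log2 fold change in the authors' deposited table. The next lowest was rbp4l at -0.42, and the median of these genes was -0.10. The SE of cyp1a was also above the median SE of these genes, 0.0893, and 7.28% of them had a larger one. Its larger SE goes with a larger estimated spread between pools, and which pools were high or low was not analysed here because the table holds no value per library.

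**Figure D2:**
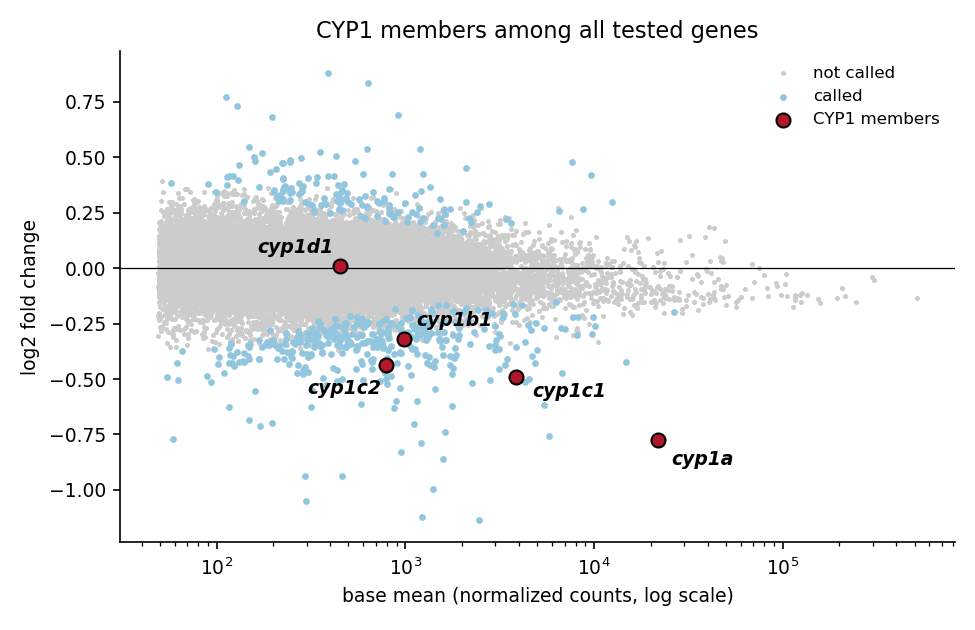
Log2 fold change against base mean on a log scale for all 19257 tested genes (grey, not called; blue, called), with the 5 CYP1 genes in red. At a base mean of 21956 and a log2 fold change of -0.78, cyp1a stands below every gene of similar base mean, whose lowest is -0.42, while cyp1d1 at 0.01 lies in the middle of the grey cloud.

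The cyp1c genes of zebrafish are a pair of close duplicates of a subfamily that mammals have lost, and AhR ligands induce both in zebrafish. In the authors' deposited table cyp1c1 stood at -0.49 (SE 0.0998; adjusted DESeq2 p = 1.82e-04), or 71.2% of the DMSO level (95% interval 62.2% to 81.6%), at a base mean of 3844. Its partner cyp1c2 stood at -0.44 (SE 0.0901; adjusted DESeq2 p = 2.33e-04), or 73.9% (65.3% to 83.5%), at a base mean of 792 in the authors' deposited table. The estimates of the paired genes were close, with a difference of -0.05. Its interval, as defined below, ran from -0.59 to 0.48, too wide to show that both fell alike.

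The annotation used by the authors puts cyp1c2 on chromosome 17 from 996509 to 999909 and cyp1c1 on an unplaced scaffold, from 103570 to 106640, both on the plus strand. In the RefSeq annotation of another assembly, GRCz12tu, the pair are direct neighbours on chromosome 17, followed by gchfr. How reads common to such similar genes were assigned is not stated, so the separate values of cyp1c1 and cyp1c2 are uncertain. Their shared direction may not be independent either, which was not tested.

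The remaining called member was cyp1b1, whose enzyme oxidizes steroids and retinoids and whose human counterpart is a gene of inherited glaucoma. It stood at a log2 fold change of -0.32 in the authors' deposited table (SE 0.0904; adjusted DESeq2 p = 0.0216), with a 95% Wald interval from -0.50 to -0.14, or 80.2% of the DMSO level, at a base mean of 987. The gene lies on chromosome 13 from 42011285 to 42020480 on the plus strand. Its call is the least secure of the 4. It was lost when all fold changes were shifted to make the group sums equal (adjusted p = 0.0696, recomputed from the DESeq2 values). Those sums were rebuilt from base means and deposited fold changes, taking base means as averaged over DMSO and TCPMOH alone, which is not stated. The call was also lost when the Wald statistics were scaled to their own spread (adjusted p = 0.355, recomputed likewise).

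The exception was cyp1d1, a member that became a pseudogene in humans and that dioxin-like AhR ligands are known not to induce in zebrafish. It stood at a log2 fold change of 0.01 (SE 0.0746; adjusted DESeq2 p = 0.969) at a base mean of 452 in the authors' deposited table. The 95% Wald interval ran from -0.13 to 0.16, or 91.1% to 112% of the DMSO level, so a fall of the size measured for any of the other 4 members lies outside it. Its SE was the smallest of the 5, and 77.5% of the tested genes with a base mean within a factor of 2 had a larger one. The gene lies on chromosome 5 from 25603761 to 25621633 on the minus strand. An entry of kat5b on the same strand overlaps cyp1d1, with a deposited span from 23597090 to 66754515. So long a span may be an annotation error, which was not checked. The plus-strand gene si:dkey-96l17.6, with a base mean of 22.3, overlaps cyp1d1 too. The other 4 members overlapped no other entry.

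Differences between members were compared in all 10 pairs. The covariance of 2 genes measured in the same libraries is unknown here, so the SEs of both genes were added, which is the largest SE their difference can have, and 99.5% intervals were used to allow for the number of pairs. On that basis cyp1a was lower than cyp1d1 by more than the error, with a difference of -0.79 in log2 fold change and an interval from -1.30 to -0.28. The difference between cyp1c1 and cyp1d1, -0.50, also excluded 0, narrowly, with an interval from -0.99 to -0.01. For cyp1c2 against cyp1d1 (-0.45, interval -0.91 to 0.01) and cyp1b1 against cyp1d1 (-0.33, interval -0.79 to 0.13) it did not. The 4 called members could not be ranked among themselves, as each of their 6 differences had an interval that included 0. The widest, between cyp1a and cyp1b1, was -0.46 (interval -1.01 to 0.10). That leaves the order given above a description for these neighbours.

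Base means are not divided by transcript length, and transcript lengths were not used here, so the CYP1 genes are not ranked by level.

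The receptor side of the pathway did not move as 1 block. This list and those below were drawn up with earlier results of these data known. Their shares of called genes therefore describe the lists and test nothing. Of 13 genes listed for AhR, its partners and its repressors, 11 were tested, 2 were lower and 0 higher (18.2% lower against 1.92% of all tested genes), with a median log2 fold change of -0.08 in the authors' deposited table. The called receptor gene was ahr2, which mediates dioxin toxicity in zebrafish. It stood at -0.36 (SE 0.0743; adjusted DESeq2 p = 2.77e-04), or 78.1% of the DMSO level, in the authors' deposited table. Its neighbour on chromosome 22, ahr1b, stood at 0.21 (SE 0.101; adjusted DESeq2 p = 0.344) and did not pass in the authors' deposited table. The third receptor gene, ahr1a, had a base mean of 33.2 and no adjusted p in that table.

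The partner genes arnt and arnt2, whose proteins pair with the receptor on DNA, stood at 0.05 (SE 0.0980) and 0.13 (SE 0.0956) and did not pass in the authors' deposited table. Of the chaperone genes listed as partners of the receptor, hsp90aa1.2 was lower at -0.43 (SE 0.100; adjusted DESeq2 p = 0.00209) in the authors' deposited table. Whether its protein serves the receptor in these animals was not tested. Its tandem copy hsp90aa1.1 stood at -0.02 (SE 0.119), and the division of reads between these similar genes is uncertain in the authors' deposited table. The other listed chaperone genes did not pass in the authors' deposited table. They were hsp90ab1 (-0.08, SE 0.0772, base mean 93061), aip (0.03, SE 0.0528), ptges3a (-0.14, SE 0.0681) and ptges3b (-0.12, SE 0.101). The repressor gene ahrra stood at -0.29 (SE 0.112; adjusted DESeq2 p = 0.160), and ahrrb, at a base mean of 46.7, had no adjusted p in the authors' deposited table.

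Known AhR targets outside the family were also set beside it, from a list likewise drawn up with earlier results known. Of 15 listed, 13 were tested, 5 were lower and 0 higher (38.5% lower against 1.92% of all tested genes). Negative values were found for 12, while 50.6% of all tested genes were negative, and the median was -0.29 in the authors' deposited table. The repressor gene ahrra belongs to both lists. Lowest in the authors' deposited table were ugt1b1 (-0.54, SE 0.0876) and ugt1b5 (-0.50, SE 0.0980), a pair of glucuronosyltransferase genes whose entries overlap on chromosome 11 and may share reads. Their enzymes attach glucuronic acid to compounds such as those CYP1 enzymes have oxidized. The sulfotransferase gene sult6b1 was lower at -0.50 (SE 0.103; adjusted DESeq2 p = 2.43e-04) in the authors' deposited table.

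In the authors' deposited table tiparp, whose protein restrains AhR by ADP-ribosylation in mammals, was lower at -0.35 (SE 0.0766; adjusted DESeq2 p = 6.31e-04). The NRF2 paralog gene nfe2l2b was lower at -0.39 (SE 0.103; adjusted DESeq2 p = 0.0102) in the authors' deposited table. By contrast nqo1, a quinone reductase gene that AhR and NRF2 both drive in mammals, stood at -0.04 (SE 0.0850; adjusted DESeq2 p = 0.880), with a 95% interval from -0.21 to 0.13 in the authors' deposited table. With the Wald statistics scaled to their own spread, the calls of hsp90aa1.2 (adjusted p = 0.115), tiparp (0.0638) and nfe2l2b (0.251) were lost, all recomputed from the DESeq2 values. The transcription factor gene foxq1b, at -0.32 (SE 0.117; adjusted DESeq2 p = 0.125), did not pass in the authors' deposited table. Neither did the listed targets foxq1a (-0.19, SE 0.114), ctsl.1 (-0.09, SE 0.115), gstp1 (-0.07, SE 0.0678) and foxf2a (0.01, SE 0.0776). Nor did nfe2l2a, the other listed NRF2 paralog gene, at -0.05 (SE 0.0753) in the authors' deposited table. The base mean was 3440 for nfe2l2a and 316 for nfe2l2b, so the fall of nfe2l2b was not shared by its paralog.

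A P450 works only with heme and with electrons handed over by a reductase. Of 20 genes listed for these supplies, 18 were tested, 2 were lower and 0 higher (11.1% lower against 1.92% of all tested genes), with a median of -0.06 in the authors' deposited table. The lower pair were both electron donors. The P450 oxidoreductase gene porb stood at -0.51 (SE 0.0774; adjusted DESeq2 p = 2.13e-08), or 70.1% of the DMSO level, in the authors' deposited table. The microsomal cytochrome b5 gene cyb5a stood at -0.51 (SE 0.0896; adjusted DESeq2 p = 5.56e-06), or 70.4%, in the authors' deposited table. Both folds are close to that of cyp1c1.

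The second oxidoreductase gene, pora, stood at -0.12 (SE 0.0748; adjusted DESeq2 p = 0.528) and did not pass in the authors' deposited table. None of the tested heme synthesis genes was called. Of them alas1, which encodes the first enzyme of the route outside red blood cells, had the lowest value at -0.26 (SE 0.107; adjusted DESeq2 p = 0.206) in the authors' deposited table.

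**Figure D3:**
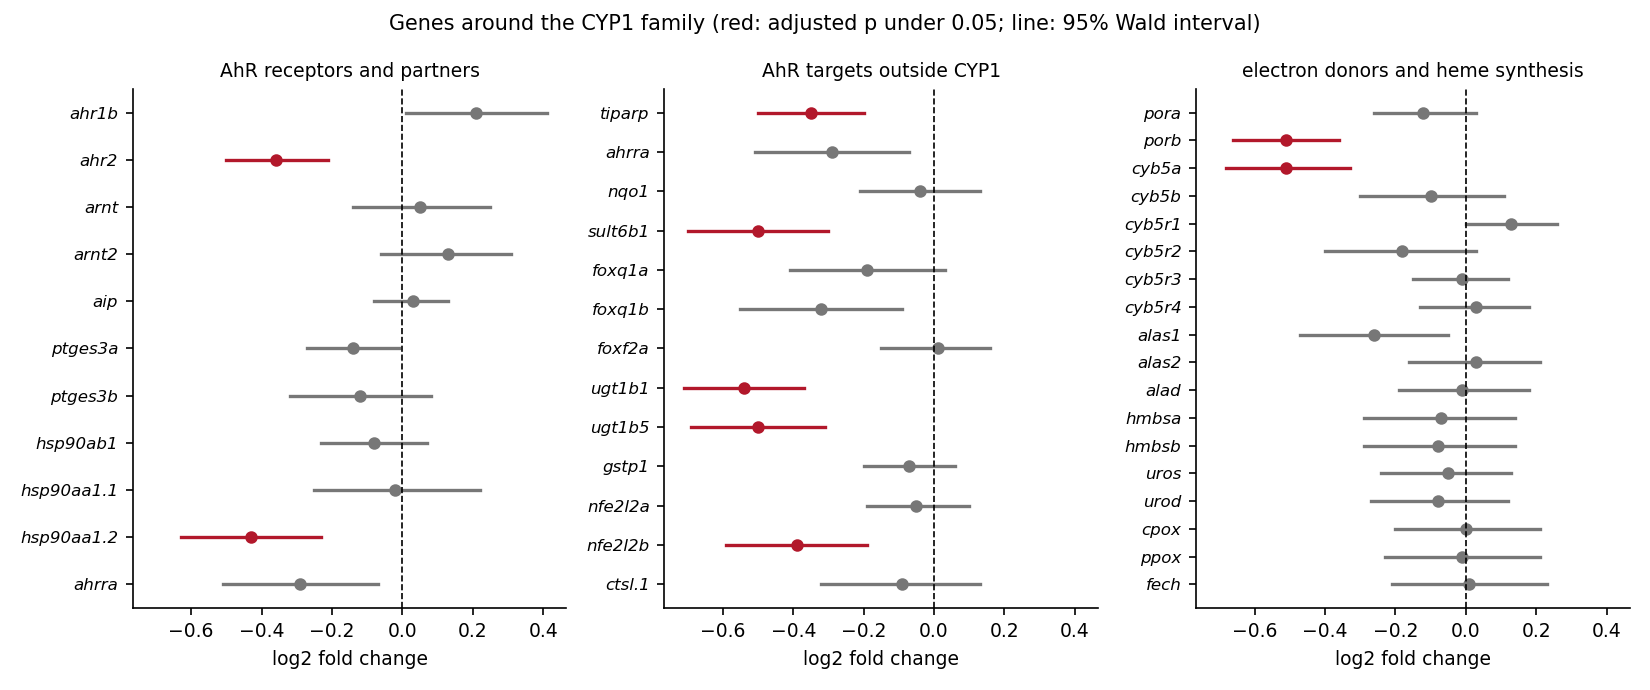
Log2 fold change (point) and 95% Wald interval (line) of the tested genes of 3 lists around the CYP1 family, with called genes in red. The called genes lie below 0 in each panel, with ugt1b1 lowest at -0.54, while arnt, arnt2, nqo1 and the heme synthesis genes cross 0 apart from alas1, which was not called at -0.26.

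In a whole animal, fewer cells of a type and less RNA per cell cannot be told apart. Marker genes of larval tissues, several of which express CYP1 genes, were set beside the family. The 7 enterocyte markers, including fabp2 and vil1, were all negative, while 50.6% of all tested genes were negative. They ranged from -0.33 to -0.02 with a median of -0.17, and 0 were called in the authors' deposited table. With group sums made equal, a shift of 0.048 log2 units, their median was -0.12 and not all 7 stayed negative. The 8 hepatocyte markers ranged from -0.15 to 0.06 with a median of -0.07, and 0 were called in the authors' deposited table. Every marker of these 2 lists stood nearer to 0 than cyp1a, cyp1c1 and cyp1c2, while fabp2 (-0.33) stood slightly below cyp1b1. Other genes known from enterocytes, chosen after their values were seen, were called lower, some by about as much as the cyp1c genes. As a picked set they give no share to set beside the 1.92% of all tested genes called lower. In the authors' deposited table the sterol transporter genes abcg8 and abcg5 stood at -0.51 (SE 0.117) and -0.47 (SE 0.118), and the alkaline phosphatase gene alpi.2 at -0.47 (SE 0.121). The apolipoprotein gene apoa4a (-0.41, SE 0.113) and the lipid synthesis gene mogat3a (-0.36, SE 0.0946) were lower too in the authors' deposited table. These 5 calls were lost with the Wald statistics scaled to their own spread (recomputed adjusted p from 0.0958 to 0.309). By contrast alpi.1, named like alpi.2, stood at 0.22 (adjusted DESeq2 p = 0.238) and did not pass in the authors' deposited table. The part of a change in intestine cells in the CYP1 values was not tested.

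Vascular markers pointed the other way. Of 10 tested, 8 were positive with a median of 0.09, while 50.6% of all tested genes were negative. Among these markers cdh5, an endothelial cadherin gene, was higher at 0.28 (SE 0.0759; adjusted DESeq2 p = 0.0156) in the authors' deposited table. That call was lost with the Wald statistics scaled to their own spread (adjusted p = 0.289). With group sums made equal, 2 vascular markers were called higher, cdh5 among them (adjusted p = 0.00225, recomputed from the DESeq2 values). The medians of the epidermis (-0.10), kidney tubule (-0.13), cartilage (-0.01, and 0.04 with group sums made equal), retina (0.12) and erythrocyte (0.07) markers lay nearer to 0 than that of the CYP1 genes, with 0 called in each, in the authors' deposited table. With group sums made equal, 1 epidermis marker (tp63, adjusted p = 0.0472) and 1 retina marker (rx1, adjusted p = 0.0402) were called higher, both recomputed from the DESeq2 values. Of the erythrocyte markers hbba1 had a base mean of 0 and hbaa1 one of 1.53.

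**Figure D4:**
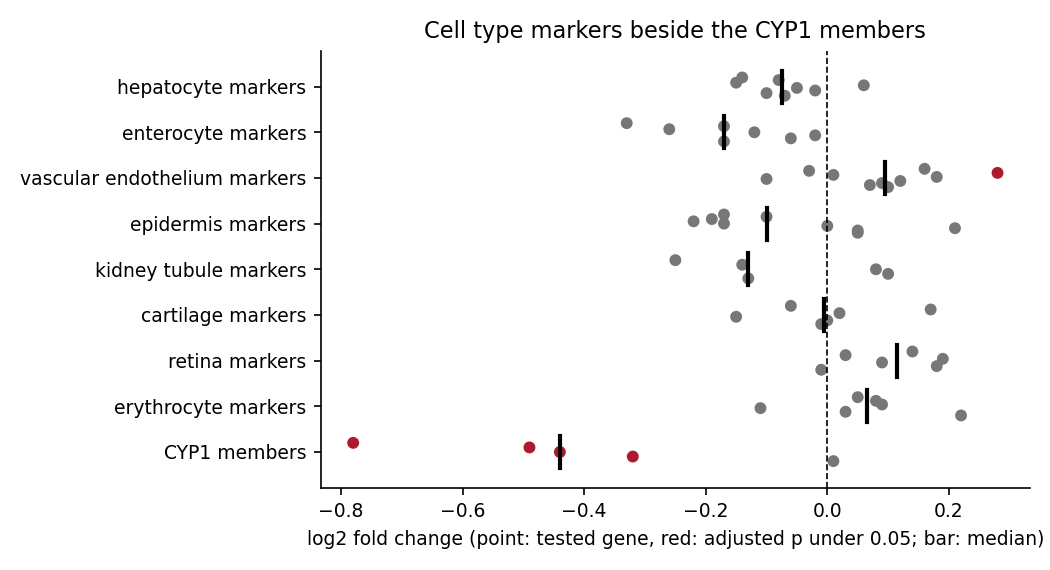
Log2 fold change of each tested marker gene (points, red where called) in 8 lists of cell type markers and of the 5 CYP1 genes, with the median of each list as a black bar. The bar of the CYP1 genes stands at -0.44 and those of the marker lists between -0.17 (enterocyte) and 0.12 (retina).

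The deposited fold changes appear to be pulled toward 0. No SE in the authors' deposited table exceeded 0.124, and the median SE was 0.0245 at base means below 1, 0.123 from 20 to 50 and 0.0704 from 1000 to 3000, a rise and fall that a normal prior on the fold change gives. With such a prior undone, the log2 fold changes became -1.03 for cyp1a, -0.61 for cyp1c1, -0.52 for cyp1c2, -0.38 for cyp1b1 and 0.01 for cyp1d1. These take the smaller of 2 corrections that the SE allows, the one that belongs to the falling side of that curve. The base means of the members, from 452 to 21956, lie above the band from 20 to 50, on that side. No values per library were at hand to check this for each gene. The larger correction belongs to the rising side, at low base means. For the members it would give -3.17 for cyp1a, -2.41 for cyp1c1, -2.80 for cyp1c2, -2.03 for cyp1b1 and 0.11 for cyp1d1. It would also put cyp1c2 below cyp1c1. The Wald statistics and the calls are the same either way.

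**Figure D5:**
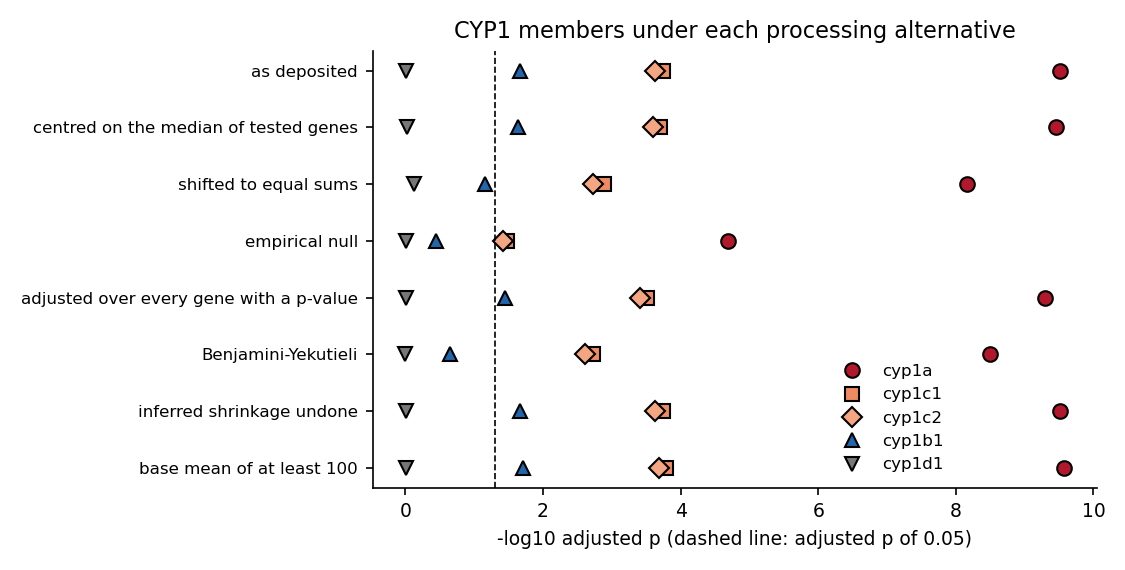
Minus log10 of the adjusted p of each CYP1 gene (symbols) as deposited and under 7 alternatives, with the dashed line at an adjusted p of 0.05. cyp1a, cyp1c1 and cyp1c2 stay right of the line in every row, cyp1b1 falls left of it in 3 rows (adjusted p = 0.0696, 0.355 and 0.225), and cyp1d1 is left of it throughout.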

How the data were processed

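The mRNA libraries were made with a stranded mRNA kit, per the labels' protocols. The submitters' processing notes name FastQC, cutadapt, STAR, featureCounts and DESeq2 with no version or setting. Per the file headers, gene symbols come from an annotation marked LL, and identifiers of Ensembl release 99 are given beside them. No source used here names the genome build behind the authors' coordinates, which are printed as deposited.

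The authors' deposited base mean is a signal in normalized counts. The deposited fold change and its SE are log2 values, the deposited Wald statistic is a score, and each deposited p-value is two-sided. Recomputing the Benjamini-Hochberg adjustment over 19257 genes gave values within 5.17e-06 of those deposited. The table has no column per library, so depth per library is unknown and count models were not run. The p-values rest on the spread between pools as the authors fitted it. The series mentions 3 experimental replicates and 20 breeding pairs, and which pools share one is not stated. Pools that share one may not be independent, and whether the fit allowed for that is not stated either.

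Genes were called at an adjusted p under 0.05. Named genes are the 5 members, the called genes of the lists of AhR receptors and partners, AhR targets, and electron donors and heme synthesis, with ahr2, ahrra, tiparp, arnt, arnt2, nqo1, pora and alas1, and the nearest gene on each side of a member. Others (ahr1a, ahr1b, ahrrb, hsp90aa1.1, hsp90ab1, aip, ptges3a, ptges3b, nfe2l2a, foxq1a, foxq1b, foxf2a, gstp1, ctsl.1, rbp4l, fabp2, vil1, alpi.1, alpi.2, abcg5, abcg8, apoa4a, mogat3a, cdh5, tp63, rx1, hbba1, hbaa1, and P450 genes outside the family) were named after their values were seen. No gene is named for a like pattern, which needs values per library. Members and lists were chosen with earlier results of these data known. The 2 listed symbols por and hmbs had no entry. All 5 members matched RefSeq by gene identifier and 5 of 5 matched the gene name table. Scripts were tested on simulated data. Python 3.11.15, numpy 2.4.6, pandas 2.3.3, scipy 1.17.1 and matplotlib 3.10.9 were used.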

Additional observations from a re-analysis of the deposited data

How the results depend on the processing

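No paired analysis was possible because the table holds no value per library, and leaving out replicates, another normalization of counts and a count model could not be run for the same reason. The calls of cyp1a, cyp1c1 and cyp1c2 held under all 8 alternatives, with adjusted p at most 2.07e-05, 0.0335 and 0.0385, and cyp1d1 was called under none. Of these alternatives, the undoing of shrinkage and the choice of row per symbol could not change a call. Centring on the median moved the fold changes by only 0.0016 log2 units. The cut at a base mean of 100 made the adjusted p of cyp1a, cyp1c1 and cyp1c2 slightly smaller, so these alternatives challenged the calls little. For cyp1b1 the log2 fold change was -0.27 with group sums made equal (adjusted p = 0.0696), and its adjusted p was 0.355 under the empirical null (Wald statistics centred on their median and divided by their own robust spread of 1.30) and 0.225 with Benjamini-Yekutieli adjustment, both at -0.32. The cause was not tested. Over all genes 516 were called (370 lower), against 122 under the empirical null and 216 with Benjamini-Yekutieli adjustment. Making the group sums equal, a shift of 0.048 log2 units, gave 218 lower (1.13% of tested genes) and 355 higher, so the balance of all calls turns with the centring, while 3 of the 4 CYP1 calls held as lower. Under the empirical null 1 receptor or partner gene (ahr2) and 3 AhR targets outside the family were called. The difference between cyp1c1 and cyp1d1 (-0.50) had an interval from -1.14 to 0.14 under the empirical null, and that between cyp1a and cyp1d1 kept excluding 0 (-1.45 to -0.12). These intervals were chosen after seeing the data. With no replicate values, the depth and spread behind each gene are known only through its base mean and SE.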

Other observations

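Among all 64 tested genes with a cytochrome P450 symbol, CYP1 members held ranks 1 (cyp1a), 2 (cyp1c1), 4 (cyp1c2) and 7 (cyp1b1) from the lowest log2 fold change, and cyp1d1 held rank 52. Of the 59 outside the family, 4 were lower and 0 higher (6.78% lower against 1.92% of all tested genes), with a median of -0.09 in the authors' deposited table. They were cyp26c1 (-0.44, SE 0.0886) and cyp26a1 (-0.35, SE 0.0959), whose enzymes break down retinoic acid, the retinoid desaturase gene cyp27c1 (-0.40, SE 0.105) and cyp2y3 (-0.30, SE 0.0835), all from the authors' deposited table. With the Wald statistics scaled to their own spread cyp26c1 kept its call (adjusted p = 0.0303), and cyp27c1 (0.261), cyp26a1 (0.319) and cyp2y3 (0.306) lost it, all recomputed from the DESeq2 values.

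Of the 9 entries flanking a CYP1 gene 6 were tested, and 2 were lower, beside cyp1a and cyp1b1, against 1.92% of all tested genes. On chromosome 18 nnt2, annotated as a nicotinamide nucleotide transhydrogenase, lies 31007 bases before cyp1a and stood at -0.43 (SE 0.108; adjusted DESeq2 p = 0.00555) in the authors' deposited table. On the other side ulk3, 17315 bases away, stood at -0.04 (SE 0.102; adjusted DESeq2 p = 0.902) in the authors' deposited table. On chromosome 13 nanp, which encodes a phosphatase of sialic acid synthesis, lies 63288 bases before cyp1b1 and stood at -0.42 (SE 0.109; adjusted DESeq2 p = 0.00736) in the authors' deposited table. Nearer to cyp1b1, 2312 bases after it, LOC103912033 stood at -0.02 (SE 0.118), with a base mean of 17.6 and no adjusted p in the authors' deposited table. With the Wald statistics scaled to their own spread the calls of nnt2 (adjusted p = 0.188) and nanp (0.215) were lost, both recomputed from the DESeq2 values. The genes flanking cyp1c2, ppp2r5ca (-0.10) and dnajc17 (0.06), did not pass in the authors' deposited table. Beside cyp1d1, tmc2b stood at -0.18 (SE 0.117; adjusted DESeq2 p = 0.548) in the authors' deposited table. The entries before cyp1c1 (LOC103911301, base mean 1.94) and before cyp1d1 (LOC110439812, base mean 17.9) had no adjusted p.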
